A study of Mus musculus with 9 samples.

Results

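The genes described here are 10 early response genes of splenic conventional dendritic cells: the EGR transcription factors Egr1, Egr2 and Egr3, the NR4A nuclear receptors Nr4a1, Nr4a2 and Nr4a3, the phosphatases Dusp1 and Dusp2, and Ier3 and Klf6. They were chosen by name, as the array features whose annotated symbol is 1 of these 10, out of 19938 genes with a feature of their own. Each had 1 such feature, so no choice between features was needed. All 10 lay above the brightness threshold (a log2 intensity of 5.94) on every array and were among the 10728 genes tested.

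The study measured RNA of sorted spleen conventional dendritic cells (cDC) of 129SvEv/Tac mice on 9 Affymetrix gene arrays. The cDC2 arrays fall into 4 groups of 2: wild type (WT) resting, WT activated, Batf-/- Batf3-/- resting and Batf-/- Batf3-/- activated. The mice called double knockout (DKO) below lack both Batf and Batf3, which code for AP-1 family transcription factors, and all other groups carry both genes. Activation meant 1 h with IFN-gamma (100 ng/ml) followed by 3 h with E. coli LPS (1 µg/ml), and resting cells had neither. Resting WT cDC1, which excel at cross-presentation, gave a single array. The labels give no age and no pooling of mice, nor do they tell if resting cells spent the same time in culture. Nothing in them ties the 2 arrays of a group to different mice, so p-values reflect only how far these samples spread, and that spread may be technical.

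Immediate early genes are transcribed within minutes of a signal, without new protein synthesis, mostly through SRF and ternary complex factors, CREB and NF-kappaB that already lie in the cell. EGR proteins are zinc finger factors that bind GC-rich sites and are held in check by the co-repressors Nab1 and Nab2. NR4A proteins are nuclear receptors that act without a known natural ligand and are controlled mainly by how much is made. Dual-specificity phosphatases of the DUSP family switch off the MAP kinases that induced them, and many early response genes also respond to tissue digestion and cell sorting.

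On the series as a whole, array medians lay between 53.4 and 55.6 on the linear scale. Batf read lower on all DKO than on all WT arrays, with a mean difference of -2.21 ± 0.39 (SE) over both states, as did Batf3 with -1.66 ± 0.32. Neither passed the threshold over all genes with limma (adjusted p = 0.126 and 0.148), but both passed with the replicate number as a block (adjusted p = 0.0161 for each). The cDC1 markers Xcr1 and Clec9a read 9.33 and 8.67 on the cDC1 array. On the cDC2 arrays they stayed at 4.42 to 4.73 and 3.64 to 4.32, below the brightness threshold. The cDC2 markers Irf4 and Sirpa read 9.37 to 11.02 and 9.05 to 10.3 on cDC2 arrays against 5.13 and 7.05 on the cDC1 array. The cDC2 markers Clec4a4, Cd209a and Clec10a stayed below the brightness threshold on all arrays. Other listed markers did not follow the labels: Clec12a, listed for cDC2, read 11.27 on the cDC1 array against 5.64 to 7.17 on cDC2 arrays. Of the cDC1 list, Irf8 read 11.67 to 12.27 on activated cDC2 arrays against 9.94 on the cDC1 array, and Batf3 reached 9.92 in activated WT cDC2 against 8.59. In bulk samples such as these, fewer cells of a type and less RNA per cell cannot be told apart.

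Promoters are shown for the members with a cAMP response element core, a CArG box or an EGR site, and so were chosen by their matches, not by how the genes moved. RefSeq windows of assembly GRCm38.p6 were matched for 8 members (12 windows, since Egr2 has 5), and the 250 bases before each start were searched on both strands. The promoters of Egr1 and Egr3 were not searched, so nothing is said of their motifs. The motifs were the cAMP response element core TGACG and the full element TGACGTCA that contains it, the EGR site (GCGGGGGCG or GCGTGGGCG), AP-1 (TGANTCA), the NR4A monomer site AAAGGTCA, the ETS site CCGGAAGT, and the CArG box and kappaB site by name. Each sequence below runs 5′ to 3′ on the gene's strand and ends at the base before the start, with matches in capitals (CGTCA is TGACG on the other strand).
Nr4a1 (chr15:101266596-101266845, plus strand): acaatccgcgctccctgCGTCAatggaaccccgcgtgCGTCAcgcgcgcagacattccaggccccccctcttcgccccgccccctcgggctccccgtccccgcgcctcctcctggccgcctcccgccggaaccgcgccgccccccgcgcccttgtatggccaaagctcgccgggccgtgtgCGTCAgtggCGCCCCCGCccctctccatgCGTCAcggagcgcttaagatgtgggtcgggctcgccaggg
Nr4a2 (chr2:57124004-57124253, minus strand): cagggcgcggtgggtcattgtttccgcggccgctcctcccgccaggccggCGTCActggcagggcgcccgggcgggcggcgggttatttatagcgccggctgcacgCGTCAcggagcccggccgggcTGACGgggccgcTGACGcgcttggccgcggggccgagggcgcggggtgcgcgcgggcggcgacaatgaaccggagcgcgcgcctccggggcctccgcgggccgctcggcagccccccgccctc
Nr4a3 (chr4:48045055-48045304, plus strand): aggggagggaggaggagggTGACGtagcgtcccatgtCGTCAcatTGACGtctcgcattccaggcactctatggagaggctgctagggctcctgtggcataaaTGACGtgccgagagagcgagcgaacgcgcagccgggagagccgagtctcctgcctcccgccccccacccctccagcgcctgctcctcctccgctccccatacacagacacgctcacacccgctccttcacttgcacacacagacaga
Egr2, the fifth window (chr10:67537680-67537929, plus strand): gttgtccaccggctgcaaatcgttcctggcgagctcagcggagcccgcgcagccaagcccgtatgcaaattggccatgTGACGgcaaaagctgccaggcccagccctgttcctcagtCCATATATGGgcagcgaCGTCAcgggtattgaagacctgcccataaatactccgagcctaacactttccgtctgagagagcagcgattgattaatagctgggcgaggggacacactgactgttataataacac
Dusp1 (chr17:26508473-26508722, minus strand): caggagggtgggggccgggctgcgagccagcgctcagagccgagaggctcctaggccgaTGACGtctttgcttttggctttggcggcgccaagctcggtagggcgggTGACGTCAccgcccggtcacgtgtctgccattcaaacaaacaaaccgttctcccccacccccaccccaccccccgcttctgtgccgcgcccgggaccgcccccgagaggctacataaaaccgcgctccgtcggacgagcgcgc
Dusp2 (chr2:127335909-127336158, plus strand): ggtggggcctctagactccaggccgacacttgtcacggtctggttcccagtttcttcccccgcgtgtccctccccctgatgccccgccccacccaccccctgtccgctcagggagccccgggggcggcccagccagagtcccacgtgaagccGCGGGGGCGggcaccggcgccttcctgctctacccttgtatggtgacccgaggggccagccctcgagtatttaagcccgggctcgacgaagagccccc

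The core TGACG occurred 4 times in each of the NR4A windows, whereas 0.137% of all 32851 windows of this length held 4 or more. Dusp1 held it 3 times, of which 2 form the full element TGACGTCA at 143 to 136 bases before the start, and the Egr2 window shown held it 2 times. In all, 7 of the 12 member windows held a core, 3 of them overlapping windows of Egr2, and 17.8% of all windows did. The Egr2 window also held a CArG box, the site bound by SRF, 133 to 124 bases before the start (1.47% of all windows have 1). An EGR site lay in the Nr4a1 and Dusp2 windows (3.06% of all windows), and a kappaB site in another Egr2 window (2 overlapping matches) and in that of Ier3 (7.25%). The window of Klf6 held none of the motifs. Of the 8 members searched, which leave out Egr1 and Egr3, 0 had an AP-1, NR4A monomer or ETS match (6.75%, 1.34% and 2.88% of all windows). A match describes letters in the window and says nothing of whether a factor binds there.

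Egr2, which restrains lymphocyte activation and drives myelination, had the widest spread among the EGR genes. Its log2 intensity on the arrays numbered 1 and 2 was 9.91 and 8.57 in resting WT cDC2, 9.90 and 8.99 in resting DKO, 8.57 and 7.62 in activated WT, 8.42 and 7.66 in activated DKO and 7.98 in cDC1. Both genotypes were thus high at rest and low after activation. The DKO arrays did not overlap between states, while in WT the lower resting array and the higher activated one both read 8.57.

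Egr1, the best known immediate early factor of the family, varied less. Its values were 7.52 and 6.88 in resting WT, 7.03 and 6.26 in resting DKO, 7.57 and 7.25 in activated WT, 7.20 and 6.99 in activated DKO and 6.86 in cDC1. The highest groups were the WT ones, and the 2 activated groups did not overlap, with both DKO arrays below both WT arrays. Egr3, a close relative of Egr2, read 7.10 and 6.81, 7.14 and 6.47, 7.18 and 6.88, and 6.88 and 6.88 in the same 4 cDC2 groups and 6.87 in cDC1. Its whole range was 0.71, and the cDC2 groups overlapped, so no order of groups stood out from the replicate spread.

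Nr4a1 (Nur77), an immediate reporter of antigen receptor and inflammatory signals, read 9.84 and 8.84 in resting WT and 9.26 and 8.01 in resting DKO cDC2. After activation it read 9.86 and 9.24 in WT and 9.50 and 8.78 in DKO, and it read 7.96 in cDC1. The cDC1 array was the lowest of all 9, close to the second resting DKO array, and each DKO array lay below the WT array of the same number and state. Nr4a2 (Nurr1), best known from dopamine neurons, gave 8.33 and 7.05 in resting WT, 8.17 and 7.18 in resting DKO, 8.33 and 7.77 in activated WT, 8.35 and 8.01 in activated DKO and 7.98 in cDC1. Its cDC2 groups overlapped, and the low values were the 2 resting arrays numbered 2.

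Nr4a3 (Nor1), the NR4A receptor linked to dendritic cell migration, separated the subsets. Its values were 10.35 and 9.94 in resting WT, 10.32 and 9.81 in resting DKO, 10.84 and 10.65 in activated WT, 10.73 and 10.37 in activated DKO and 8.36 in cDC1. Every activated array lay above every resting cDC2 array, and the cDC1 array lay far below all of them.

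Dusp1, which inactivates p38 and JNK in the nucleus, spanned only 0.66 over all arrays. Its values were 12.81 and 13.16 in resting WT, 12.67 and 13 in resting DKO, 12.58 and 13.14 in activated WT, 12.97 and 12.99 in activated DKO and 12.50 in cDC1. No cDC2 group stood apart from another. Dusp2 (PAC-1), a nuclear phosphatase of immune cells, read 10.37 and 10.43 in resting WT, 10.29 and 9.89 in resting DKO, 11.16 and 11.50 in activated WT, 11.50 and 11.35 in activated DKO and 10.73 in cDC1. All 4 activated arrays lay above all others, with cDC1 between them and the resting cDC2 arrays.

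Klf6, a zinc finger factor that amplifies inflammatory gene expression in macrophages, had the same separation of states. Resting WT arrays gave 11.09 and 11.26, followed by 11.19 and 10.89 in resting DKO, 12.42 and 12.31 in activated WT, 12.37 and 12.07 in activated DKO and 11.08 in cDC1. The cDC1 value lay within the range of the resting cDC2 arrays. Ier3, a small protein that affects ERK signalling and cell survival, read 6.66 and 7.22 in resting WT, 7.11 and 7.25 in resting DKO, 7.16 and 7.62 in activated WT, 7.26 and 7.95 in activated DKO and 6.38 in cDC1. Its activated arrays were on the whole the higher ones, with overlap in WT.

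**Figure D1:**
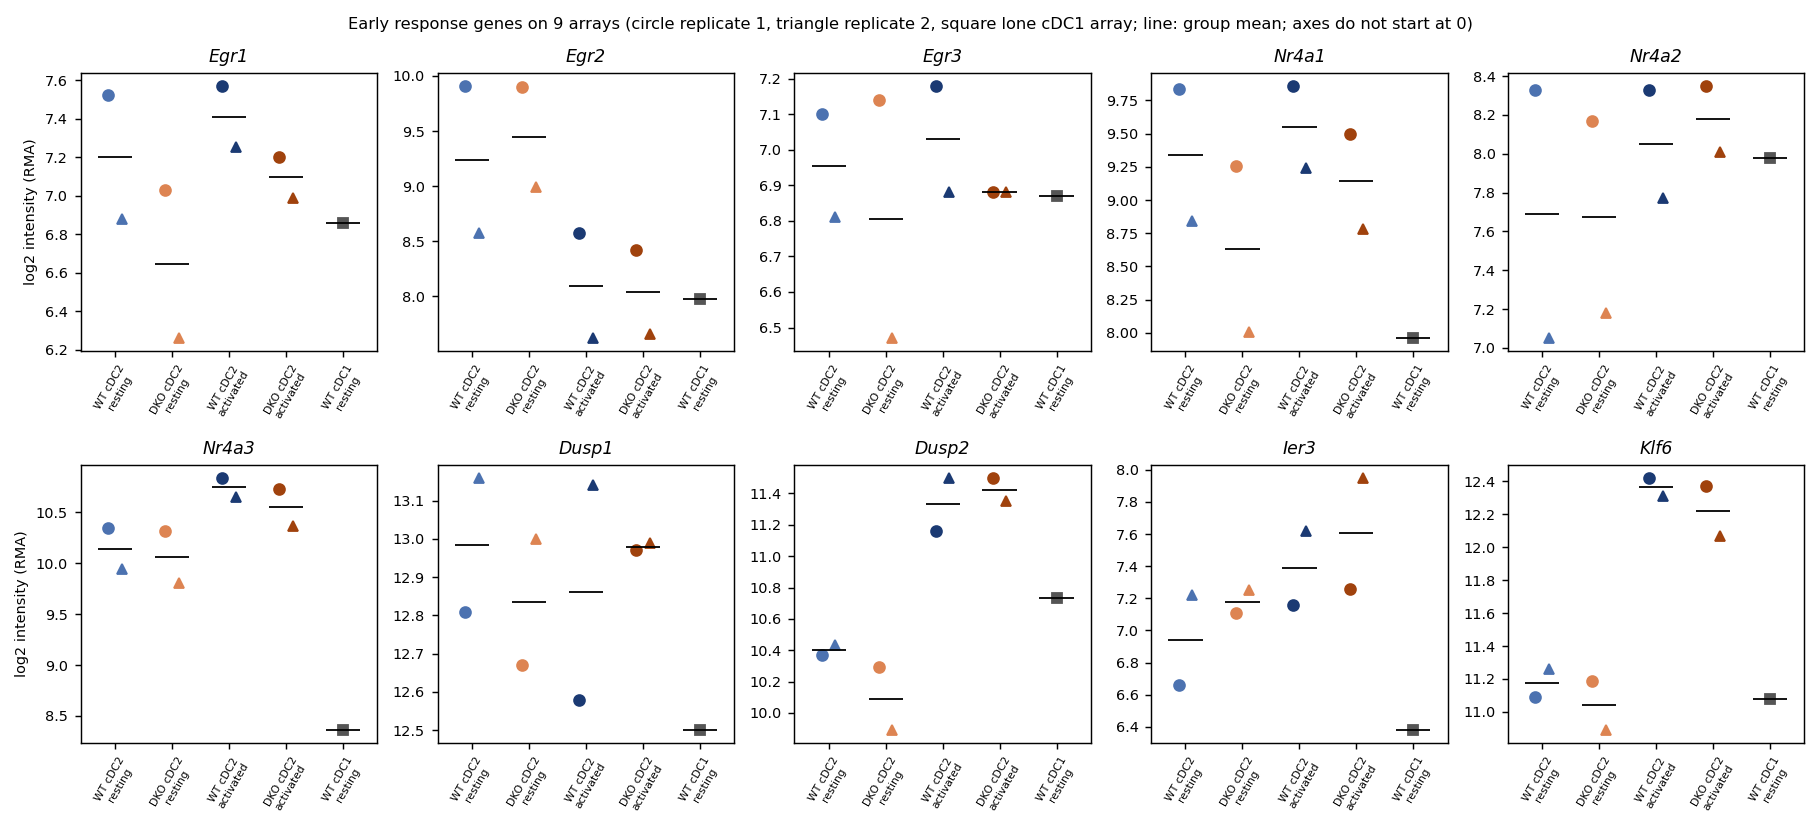
Log2 intensity of the 10 genes (vertical axes, each with its own range that does not start at 0) in the 5 groups (horizontal axes); circles are replicate 1, triangles replicate 2, the square is the lone cDC1 array and lines are group means. Klf6 and Dusp2 are high on all 4 activated arrays, Egr2 is low after activation, Nr4a3 is low in cDC1 at 8.36, and in the EGR and NR4A panels the circles lie above the triangles, except that both Egr3 values of activated DKO are 6.88.

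The first comparison set activated against resting WT cDC2. Klf6 rose by 1.19 ± 0.15 (log2 difference ± SE, 2.28-fold; limma, adjusted p = 0.0114) and Dusp2 by 0.93 ± 0.17 (1.9-fold, adjusted p = 0.0294). These were 2 of the 10 members, where 10.5% of all genes passed in either direction, 3.97% as higher and 6.57% as lower. Egr2 differed by -1.14 ± 0.57 (adjusted p = 0.238) and Nr4a3 by 0.60 ± 0.23 (adjusted p = 0.141), neither past the threshold. The other 6 members lay between -0.12 (Dusp1) and 0.45 (Ier3). The members' median was 0.29 and that of all genes -0.07.

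In DKO cDC2, Dusp2 rose by 1.34 ± 0.17 (2.53-fold, limma, adjusted p = 0.00823) and Klf6 by 1.18 ± 0.15 (2.26-fold, adjusted p = 0.00841). Here 13.7% of all genes passed, 5.82% as higher and 7.9% as lower. Egr2 differed by -1.41 ± 0.57 (adjusted p = 0.154), with 95% limits of -2.79 and -0.02. Nr4a2 (0.51), Nr4a1 (0.50), Nr4a3 (0.48), Egr1 (0.45) and Ier3 (0.42) were on the higher side without passing, and Dusp1 and Egr3 lay at 0.15 and 0.08. The median was 0.47 for the members and -0.09 for all genes.

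Same-numbered arrays deviated together, and with the replicate number as a block in limma more members passed. Egr2 then fell in WT cells by 1.14 ± 0.14 (adjusted p = 0.00265) and in DKO cells by 1.41 ± 0.14 (adjusted p = 0.00103). In the 4 same-numbered pairs its difference was -1.34 and -0.95 in WT and -1.48 and -1.33 in DKO. Nr4a3 rose by 0.60 ± 0.10 (adjusted p = 0.00645) in WT and by 0.48 ± 0.10 (adjusted p = 0.011) in DKO. Ier3 rose by 0.45 ± 0.13 (adjusted p = 0.0414) and by 0.42 ± 0.13 (adjusted p = 0.0478). In DKO, Egr1 (0.45 ± 0.14, adjusted p = 0.048) and Nr4a1 (0.50 ± 0.16, adjusted p = 0.0442) rose as well, while in WT each stood at 0.21. That made 5 members in WT and 7 in DKO, counting Klf6 and Dusp2, where 35.3% and 38% of all genes passed.

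Read by direction, this fit called 4 members higher in WT and 6 in DKO, where 11.4% and 13% of all genes were called higher. Egr2 was the member called lower in each genotype, where 23.9% and 25% of all genes were. In all 4 same-numbered pairs 6 members read higher after activation (22.1% of all genes), and Egr2 read lower (42.5%). Groups did not overlap for 3 members on the higher side in WT (19.9% of genes) and 4 in DKO (21%). On the lower side there were 0 such members in WT (36.4% of genes) and 1, Egr2, in DKO (39.3%).

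Single arrays decided several of these calls. Without the block, Klf6 passed in WT only when resting replicate 2 was left out (adjusted p = 0.0341), and reached 0.0586 to 0.0739 without each of the other 3 arrays. Dusp2 in WT passed in none (0.0574 to 0.132). In DKO both lost their call without resting replicate 2 (0.0533 for Dusp2, 0.0616 for Klf6) and without activated replicate 1 (0.0576 and 0.0531). With the block, Egr2 and Klf6 kept their calls in both genotypes without any single array, and Egr2 then ranged from -1.37 to -0.91 in WT and from -1.56 to -1.26 in DKO. The blocked count in WT fell to 3 members without resting replicate 1 and to 2 without activated replicate 2. In DKO it fell to 3 (Dusp2, Egr2, Klf6) without resting replicate 2, activated replicate 1 or activated replicate 2.

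**Figure D2:**
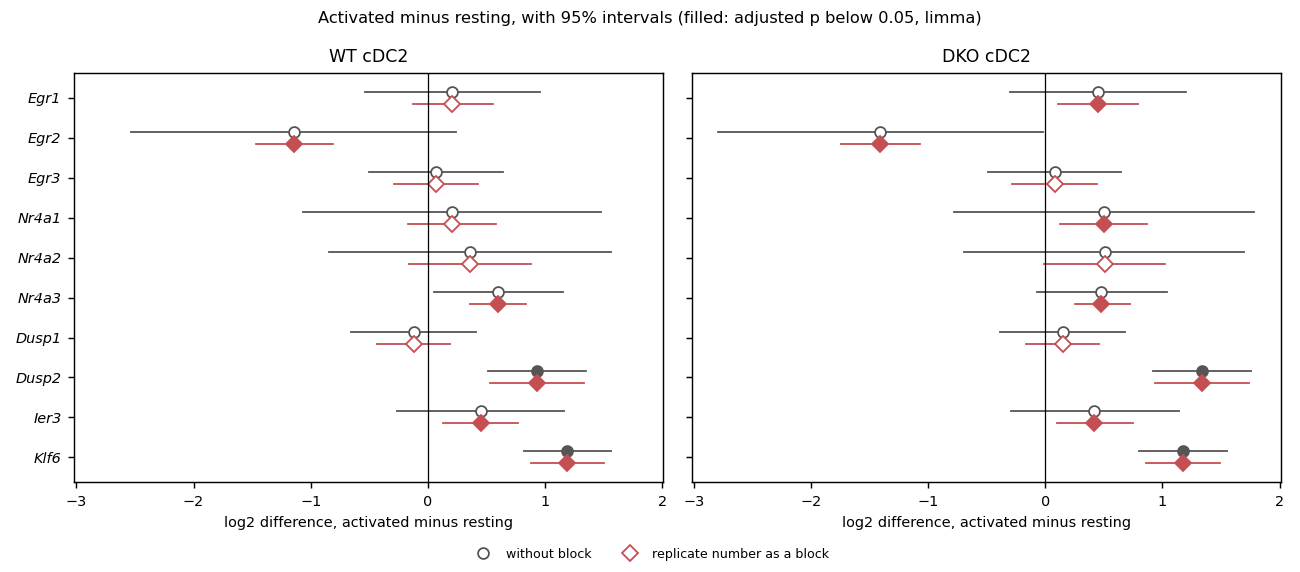
Log2 difference, activated minus resting (horizontal axes), of the 10 genes in WT and DKO cDC2, with 95% intervals, in the fit without (circles) and with (diamonds) the replicate number as a block; filled symbols have an adjusted p below 0.05. Klf6 and Dusp2 are filled in every fit, and Egr2, at -1.14 and -1.41, is filled with the block.

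Other early genes were examined as lists around the members. Of 42 wider immediate early and early response genes tested, 6 rose and 1 fell in WT, and 7 rose and 3 fell in DKO (medians 0.24 and 0.28). With the block these counts were 12 and 4 in WT and 15 and 5 in DKO. Over all genes, 3.97% passed as higher and 6.57% as lower in WT and 5.82% and 7.9% in DKO, and with the block 11.4% and 23.9% in WT and 13% and 25% in DKO. The surface receptor gene Cd69 rose by 2.98 ± 0.40 in WT and 2.84 ± 0.40 in DKO, and Nfkbiz, which codes for a nuclear IkappaB protein, by 2.07 ± 0.17 and 2.57 ± 0.17. Csrnp1, an AXIN1-induced nuclear protein gene, rose by 1.55 ± 0.26 and 1.65 ± 0.26. Zfp36l1, whose product binds AU-rich mRNA, fell by 1.71 ± 0.20 in WT and by 1.86 ± 0.20 in DKO. The classical pair Fos and Jun gave 0.24 ± 0.13 and 0.40 ± 0.12 in WT and 0.38 ± 0.13 and 0.40 ± 0.12 in DKO. None of these passed the threshold in the fit without the block. Both genes read higher on the activated array in all 4 same-numbered pairs, as did 22.1% of all genes.

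Of 16 early NF-kappaB responders tested, 4 rose in WT and 5 in DKO with none lower (medians 0.51 and 0.68). With the block 10 of the 16 rose in each genotype. For the lists in this paragraph, the shares of all genes were 3.97% higher and 6.57% lower in WT, and 5.82% and 7.9% in DKO. With the block they were 11.4% and 23.9% in WT and 13% and 25% in DKO. The cytokine genes Il6 (3.81 ± 0.16 in WT, 4.33 ± 0.16 in DKO) and Tnf (2.74 ± 0.64 and 3.02 ± 0.64) had the largest differences among those named. Of 16 other dual-specificity phosphatases, Dusp14 rose in both genotypes (0.69 ± 0.14 and 0.83 ± 0.14) and Dusp4 fell in DKO by 0.53 ± 0.13. With the block, 3 of these phosphatases rose and 3 fell in WT, and 3 rose and 2 fell in DKO. Of 12 other KLF genes, Klf8 rose by 1.73 ± 0.16 and 1.83 ± 0.16, and Klf3 fell in WT by 0.40 ± 0.09. The block gave 3 higher and 2 lower KLF genes in WT and 3 and 1 in DKO.

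Among 12 SRF, ternary complex and CREB factors, 3 fell in WT and 2 fell and 1 rose in DKO. With the block 3 rose and 3 fell in WT and 2 rose and 3 fell in DKO. Over all genes, 3.97% passed as higher and 6.57% as lower in WT, and 5.82% and 7.9% in DKO. With the block these shares were 11.4% and 23.9% in WT and 13% and 25% in DKO. The part of this list called lower with the block thus lay near that of all genes. Elk3, a ternary complex factor that can repress, fell by 0.91 ± 0.16 and by 1.09 ± 0.16, and the SRF cofactor gene Mrtfb fell by 0.64 ± 0.15 and by 0.68 ± 0.15. Of 6 ERK feedback inhibitors, Rasa2, a RAS GTPase activator, rose by 0.62 ± 0.11 and 0.78 ± 0.11, and with the block 2 rose in each genotype. Of 7 partners and relatives of the NR4A receptors, Rxrb, an NR4A dimer partner, fell by 0.50 ± 0.11 and by 0.48 ± 0.11. The glucocorticoid receptor gene Nr3c1 rose in DKO by 0.64 ± 0.12. The block called 1 of these receptors higher and 3 lower in each genotype.

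Of 6 EGR co-repressor and EGR-linked genes, 0 passed in WT by limma, and Socs1, an inhibitor of cytokine signalling, rose in DKO by 1.38 ± 0.33 (adjusted p = 0.0445). With the block 1 rose and 2 fell in each genotype. Over all genes the block called 11.4% higher and 23.9% lower in WT, and 13% and 25% in DKO. Nab2, the EGR co-repressor that is itself an EGR target, was followed after its values were seen and had the pattern of Egr2. Resting WT arrays gave 9.51 and 8.96, followed by 9.73 and 8.81 in resting DKO, 8.90 and 8.23 in activated WT, 8.93 and 8.17 in activated DKO and 8.73 in cDC1. With the replicate block it fell by 0.67 ± 0.10 in WT (adjusted p = 0.00558) and by 0.72 ± 0.10 in DKO (adjusted p = 0.00348), while without it the adjusted p was 0.336 and 0.295.

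**Figure D3:**
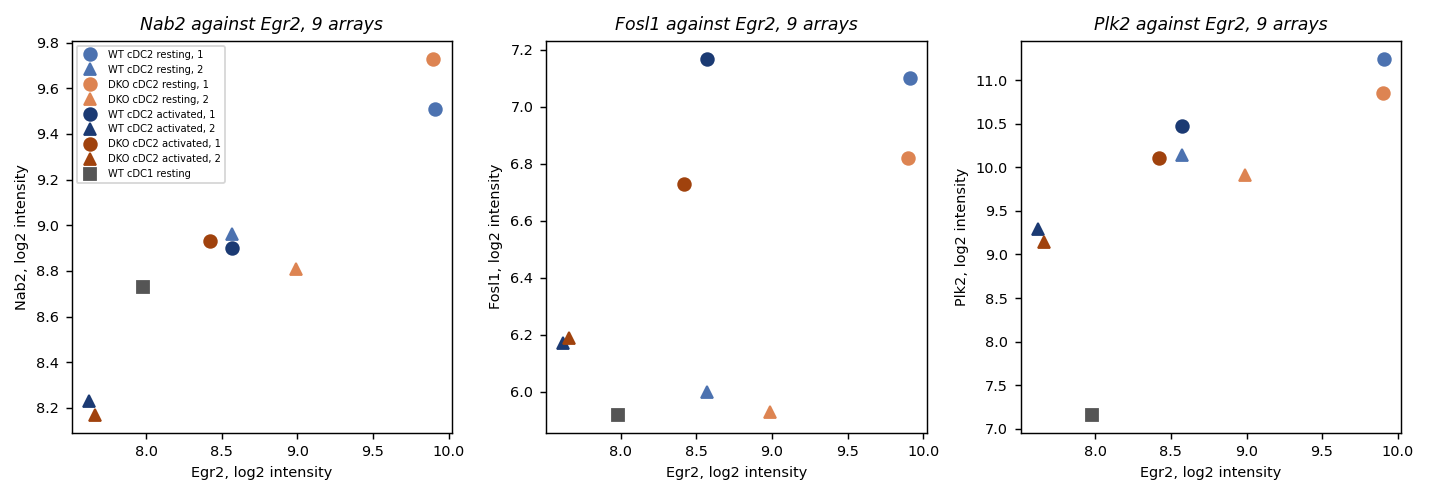
Log2 intensity of Nab2, Fosl1 and Plk2 (vertical axes) against Egr2 (horizontal axes) on the 9 arrays, with 1 symbol per array. Nab2, Fosl1 and Plk2 were all chosen after their values were seen. Nab2 runs from 8.17 where Egr2 reads 7.66 to 9.73 where Egr2 reads 9.90, Fosl1 splits by replicate number (circles against triangles), and Plk2 is at 7.16 on the cDC1 array.

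The study asked which genes BATF proteins control, so DKO was set against WT at rest, after activation and averaged over the states. With limma, 0 members passed in each of the 3 comparisons, where 0.0186% of all genes passed in each. Genes with an unadjusted p under 0.05 numbered 707, 638 and 1157, again with 0 members among them. The largest member difference was that of Nr4a1, at -0.71 ± 0.53 (adjusted p = 0.983) in resting and -0.41 ± 0.53 (adjusted p = 1) in activated cells. Egr1 followed at -0.55 ± 0.31 and -0.32 ± 0.31. The 95% interval of Nr4a1 at rest ran from -1.98 to 0.57, and single arrays set its size: it was -0.08 without DKO resting replicate 2, -0.21 without WT resting replicate 1, -1.33 without DKO resting replicate 1 and -1.20 without WT resting replicate 2.

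By same-numbered pairs, Nr4a1 read lower in DKO in all 4, by -0.58 and -0.83 at rest and -0.36 and -0.46 after activation. Egr1 was lower in all 4 as well (-0.49, -0.62, -0.37 and -0.26), and so was Nr4a3 (-0.04, -0.12, -0.11 and -0.28). These 3 members compare with 13.3% of all genes lower in all 4 pairs. Ier3 was higher in all 4, as were 18.9% of all genes. At rest, DKO and WT arrays did not overlap for Dusp2, which was lower in DKO as were 13.4% of genes, and 0 members were higher (17.7% of genes). After activation Egr1 was lower without overlap (13.5% of genes) and 0 members were higher (16.4%).

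With the replicate number as a block, Nr4a1 fell by 0.56 ± 0.11 in the mean of both states (0.679-fold, adjusted p = 0.0403), the 1 member called where 5.58% of all genes were (2.6% as lower). Egr1 stood at -0.43 ± 0.10 (adjusted p = 0.0624). Within either state 0 members passed in that fit, where 0.736% of genes passed at rest and 0.569% after activation. Genes with an unadjusted p under 0.05 numbered 1696 at rest, 2 of them members, and 1567 after activation, 1 of them a member. The Nr4a1 call was lost without any 1 of the 8 arrays, with differences from -0.68 to -0.44 and adjusted p from 0.0505 to 0.134.

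Nr4a1 also marks Ly6C-low monocytes, so the other 8 monocyte markers on the array were summed on the linear scale. The sums were 1310 and 1050 in resting WT, 1030 and 1030 in resting DKO, 743 and 780 in activated WT, 657 and 602 in activated DKO and 2580 in cDC1. Depending on the array, 4 to 6 of the 8 lay above the brightness threshold. The sums were lower in DKO than in WT in each state. Treml4, a marker of the same Ly6C-low monocytes and the largest term of the sum, differed between genotypes by -0.05 ± 0.17 in the mean of both states. Without it the sums were 686 and 611 in resting WT, 463 and 588 in resting DKO, 441 and 565 in activated WT and 391 and 368 in activated DKO. On the cDC1 array, where Treml4 read 11.12, the sum without it was 360, the lowest of all arrays. Of the other monocyte markers in the sum, which are not all markers of Ly6C-low cells, Ccr2 and F13a1 stayed below the threshold on all arrays. Ace read 5.37 to 5.74 in DKO cDC2 and 5.76 to 6.32 in WT cDC2, and Cx3cr1 read 6.03 to 7.12 and 6.22 to 7.81. Complement genes of the macrophage list were also lower in DKO, C1qa by -0.65 ± 0.15, C1qb by -0.80 ± 0.14 and C1qc by -0.53 ± 0.11 over both states. They passed the threshold with the block in limma (adjusted p = 0.0328, 0.0108 and 0.0401) but not without it (0.21, 0.127 and 0.175). The C1q genes read 5.59 to 7.35 on cDC2 arrays, in part below the brightness threshold. Other genes of that list differed, at rest and after activation, by 0.65 and 0.28 (Spic), 0.05 and 0.01 (Adgre1) and 0.19 and -0.05 (Timd4). Vcam1 (-0.69 and -0.36) and Hmox1 (-0.50 and -0.91) were lower, and none of these passed without the block. The summed level of all 11 macrophage markers, of which 5 to 9 lay above the brightness threshold, was 2000 to 2860 in DKO and 2390 to 2810 in WT cDC2. The part of monocyte and macrophage markers in the Nr4a1 difference was not tested.

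**Figure D4:**
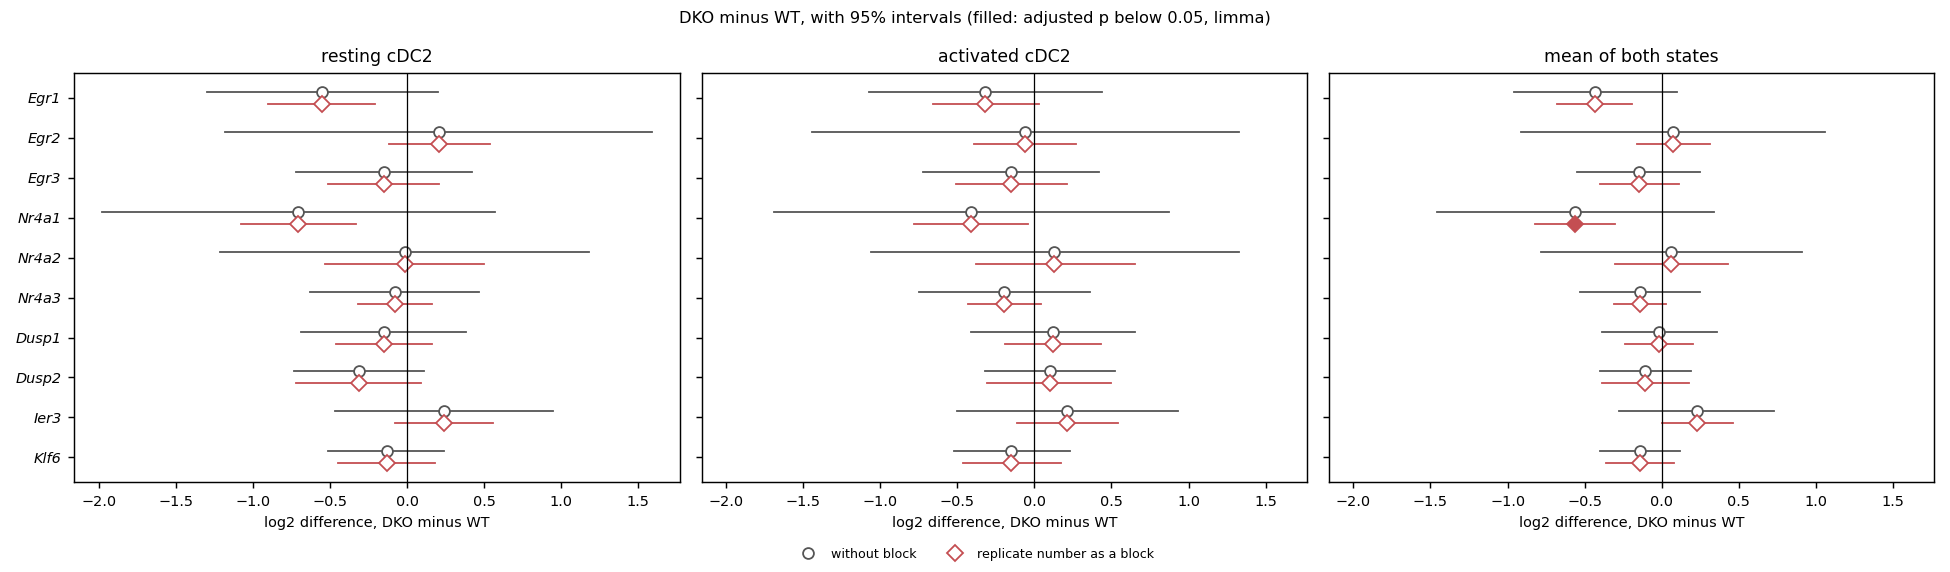
Log2 difference, DKO minus WT (horizontal axes), of the 10 genes at rest, after activation and averaged over the states, in cDC2, with 95% intervals, in the fit without (circles) and with (diamonds) the replicate number as a block. The filled diamond, Nr4a1 at -0.56 in the mean of both states, is the only one with an adjusted p below 0.05.

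In the lists around the members, 0 genes passed in any genotype comparison by limma without the block. In the mean of both states, the genes of smallest p were Srf at 0.41 ± 0.09 (adjusted p = 0.176) and Mafk at -0.54 ± 0.12 (adjusted p = 0.189). With the block, 5.58% of all genes passed in that mean, 2.98% as higher and 2.6% as lower. In that fit 3 of the 42 wider early genes fell, namely Atf3 by 0.71 ± 0.06, Tiparp by 0.57 ± 0.12 and Mafk by 0.54 ± 0.10. The genes named next were each the only call of their list, and 0 KLF genes and 0 ERK feedback inhibitors passed. The chemokine gene Ccl3 fell by 0.98 ± 0.06, Cd44 by 0.42 ± 0.08 and Nr3c1 by 0.32 ± 0.07. Dusp16, a JNK phosphatase gene, rose by 0.66 ± 0.06 and Srf, the factor of the CArG box, by 0.41 ± 0.08.

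Whether the activation response differed between genotypes was tested as an interaction. With limma 0 of the 10 members and 0% of all genes passed, without and with the block. Genes with an unadjusted p under 0.05 numbered 121 and 368, with 0 members among either. The largest member difference was that of Dusp2, whose response was 0.41 ± 0.25 greater in DKO, with 95% limits of -0.18 and 1.01. That of Klf6 was -0.01 ± 0.22, with limits of -0.54 and 0.51, and that of Egr2 -0.26 ± 0.81, with limits of -2.22 and 1.70.

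Resting WT cDC1 were set against resting WT cDC2, on the assumption that a cDC1 array varies like a cDC2 array. The resting WT arrays used here also serve the WT activation and resting genotype comparisons. Nr4a3 was lower in cDC1 by -1.79 ± 0.28 (0.29-fold, limma, adjusted p = 0.0118), the 1 member called where 13.6% of all genes were (7.08% as higher and 6.56% as lower). Nr4a1 differed by -1.38 ± 0.65 (adjusted p = 0.213) and Egr2 by -1.26 ± 0.70 (adjusted p = 0.292), neither past the threshold. The cDC1 array lay below both cDC2 arrays for 7 members, which held for 40% of all genes, and above both for Dusp2, which held for 38.1%. The members' median was -0.41 and that of all genes -0.01. Nr4a3 kept its call without either cDC2 array (-1.99 and -1.58, adjusted p up to 0.044), but not in a fit of these 3 arrays alone (adjusted p = 0.208).

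Among the wider early genes, 5 of 42 were lower in cDC1 and 1 was higher, where 6.56% of all genes were lower and 7.08% higher. Jun, the AP-1 subunit that pairs with BATF proteins, differed by -2.27 ± 0.15 (adjusted p = 0.000834), Plk2, a stress-induced kinase gene, by -3.54 ± 0.73 and the cyclooxygenase gene Ptgs2 by -3.04 ± 0.74. Gadd45a, a stress response gene, was higher by 2.43 ± 0.20. Dusp10 was higher by 1.48 ± 0.12, while Dusp4 (-0.77 ± 0.16), Klf3 (-0.73 ± 0.11), Klf8 (-0.77 ± 0.19), the EGR co-repressor gene Nab1 (-0.47 ± 0.12) and Rora (-1.76 ± 0.41) were lower. Of the early NF-kappaB responders, Tnfaip3 (-1.05 ± 0.15) and Rel (-0.72 ± 0.14) were lower and 0 of 16 higher.

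Arrays numbered 1 and 2 within the same group differed in these genes, a comparison added after the data had been seen. The labels do not say what the number stands for. Egr2 read higher on the array numbered 1 in all 4 cDC2 groups, by 1.34 in resting WT, 0.92 in resting DKO, 0.95 in activated WT and 0.77 in activated DKO. Nr4a1 was higher by 1.00, 1.25, 0.62 and 0.72 and Nr4a2 by 1.28, 0.99, 0.55 and 0.34 in the same groups. Egr1 (0.64, 0.76, 0.33 and 0.22) and Nr4a3 (0.41, 0.50, 0.18 and 0.36) ran the same way. Ier3 ran the opposite way, with -0.56, -0.14, -0.46 and -0.69.

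In the block fit the difference between numbers was 0.99 ± 0.10 for Egr2 (limma, adjusted p = 0.00273), 0.90 ± 0.11 for Nr4a1 (0.00499) and 0.79 ± 0.15 for Nr4a2 (0.0156). It was 0.49 ± 0.10 for Egr1 (0.0199), 0.36 ± 0.07 for Nr4a3 (0.0154) and -0.46 ± 0.10 for Ier3 (0.0191). So 6 of 10 members passed, 5 as higher on arrays numbered 1, where 22.3% of all genes passed, 9.63% as higher and 12.6% as lower. Egr3 (0.32 ± 0.11, adjusted p = 0.0765) and Dusp1 (-0.31 ± 0.09, adjusted p = 0.0529) did not pass, and Dusp2 (0.03 ± 0.12) and Klf6 (0.13 ± 0.09) lay near 0. All 3 EGR and all 3 NR4A genes were higher on array 1 in all 4 groups, Egr3 in activated DKO by a margin that rounds to 0, as were 19% of all genes. Dusp1 and Ier3 were lower in all 4, as were 23.9% of all genes.

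Egr2 and Nr4a1 kept this call without any single array. The count was 3 without either resting array of DKO or of WT, 4 without either activated WT array and 7 without either activated DKO array. Within groups, the deviations of Nr4a1 from the group mean correlated with those of Nr4a3 at r = 0.99 and with those of Egr1 at r = 0.98, and those of Egr1 with Egr2 at r = 0.94. These coefficients rest on 4 differences between paired arrays and are given as descriptions. With 2 arrays per group, genes that are higher on array 1 in every group must correlate positively. The coefficients therefore restate the shared direction given above and are no separate evidence that these genes vary together.

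**Figure D5:**
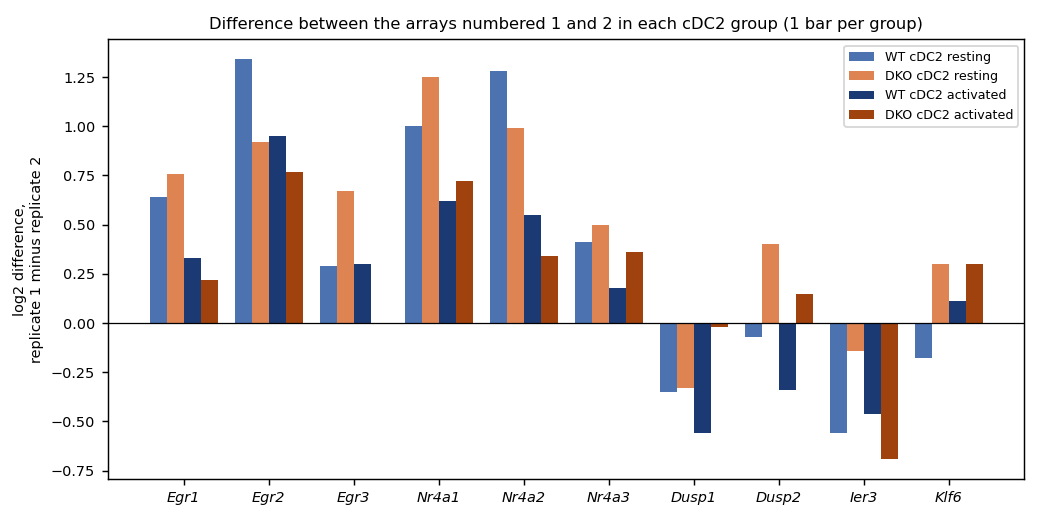
Log2 difference between the arrays numbered 1 and 2 (vertical axis) for each of the 10 genes, with 1 bar per cDC2 group. Bars of the EGR and NR4A genes are above 0 in every group (Egr3 in activated DKO at 0 to 2 decimals), up to 1.34 for Egr2, and those of Dusp1 and Ier3 are below 0.

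Over all genes, 9.63% passed as higher on arrays numbered 1 and 12.6% as lower. Of the wider early genes, 15 of 42 were higher on arrays numbered 1 and 0 were lower (median 0.20, against -0.02 for all genes). They included Plk2 (1.05 ± 0.07), Plk3 (0.99 ± 0.15), Sgk1 (0.93 ± 0.26) and Fosl1 (0.88 ± 0.10). Nab2 was higher by 0.72 ± 0.07, and of the 12 other KLF genes Klf4 (0.73 ± 0.13), Klf10 (0.62 ± 0.09) and Klf13 (0.40 ± 0.06) were higher. Among early NF-kappaB responders, 4 were higher, with Ccl3 at 1.71 ± 0.06 and Tnf at 1.11 ± 0.09, and 2 were lower. Jun (-0.07 ± 0.08) and Fos (0.16 ± 0.06) did not pass.

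Markers of other cell types also differed between the numbers, and not all in 1 direction. Of 7 plasmacytoid dendritic cell markers on the array, 3 to 5 lay above the brightness threshold, and their linear sum was 1480 to 3700 on arrays numbered 1 and 3500 to 6810 on those numbered 2. Bst2, also an interferon-stimulated gene, was the largest term of that sum on each cDC2 array. It was lower on arrays numbered 1 by -1.70 ± 0.25 (limma with the block, adjusted p = 0.00746). Without Bst2 the sums on numbers 1 and 2 were 1220 and 1170 in resting WT, 802 and 715 in resting DKO, 1590 and 1850 in activated WT and 1490 and 1560 in activated DKO. Ccr9, of the same list, was higher on number 1 by 0.68 ± 0.14 (adjusted p = 0.0177). Siglech, the defining marker, stayed between 5.66 and 5.97 on all arrays, at or near the threshold.

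B and plasma cell markers summed to more on arrays numbered 1 in each group, at 841 and 510 in resting WT, 961 and 517 in resting DKO, 470 and 368 in activated WT and 573 and 475 in activated DKO. Of the 7 on the array, 1 or 2 lay above the brightness threshold on each array. The kinase gene Blk was the largest term of the sum on cDC2 arrays. It was higher on number 1 by 0.83 ± 0.14 (limma with the block, adjusted p = 0.0105). Without Blk the sums on numbers 1 and 2 were 200 and 204 in resting WT and 216 and 195 in resting DKO. They were 204 and 203 in activated WT and 208 and 193 in activated DKO. Jchain, which stayed below the threshold on cDC2 arrays, was higher on number 1 by 0.57 ± 0.09 (limma with the block, adjusted p = 0.00849). The B cell markers Cd79a, Ms4a1 and Ebf1 stayed below the threshold on all arrays. The part of these markers in the difference between numbers was not tested.

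The genes most like each member over the 9 arrays were found by Pearson correlation of log2 values, given without p since the arrays share groups. Egr2 was most like Smg5 (r = 0.986) and Kpna1 (0.984), and Egr1 most like Manf (0.978) and Nfatc1 (0.96). Nr4a1 came with Itgav (0.978) and Hspa5 (0.964), Nr4a2 with Bin1 (0.96) and Hivep3 (0.945), and Nr4a3 with Lpp and Il1rn (0.984 each). Dusp2 came with Dll1 (0.986) and Zbtb5 (0.984), Klf6 with Cflar (0.993) and Mul1 (0.992), Ier3 with H2-Q4 (0.991) and Kars (0.976), and Dusp1 with Snrnp200 (0.947) and Osbpl11 (0.94). The likenesses of Egr3, whose range was the second smallest, were the lowest, at 0.915 for Slfnl1 and 0.897 for Mrgpre.

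Over the 8 cDC2 arrays alone, Manf (Egr1), Itgav (Nr4a1), H2-Q4 (Ier3) and Mul1 (Klf6) were again among the 2 most alike. Among the members, Dusp2 and Klf6 had r = 0.92 over 9 arrays and 0.96 over 8, and Egr1 and Nr4a1 had 0.89 and 0.97. Egr2 and Klf6 ran opposite, at -0.56 and -0.72, and Egr1 and Egr2 had 0.08 and 0.03.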

How the data were processed

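The authors deposited 1 linear RMA intensity for each transcript cluster on each array. Affymetrix Expression Console and RMA are named, without a version, per the submitters' processing notes. RMA puts arrays on a shared distribution, so differences in total RNA are not visible. Of 28853 clusters, 21789 carried 1 symbol, 1621 several and 5443 none in the platform annotation. Clusters with 1 symbol were used, the brightest per gene. A gene was tested if its mean log2 intensity in any group exceeded the median over the clusters used (61.3 linear), which left 10728.

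The test was limma 3.58.1 (R 4.3.3; lmFit, eBayes, two-sided) on log2 values, in 1 fit of 9 arrays with 4 residual degrees of freedom. Benjamini-Hochberg adjustment covered all genes tested, and 0.05 was the threshold. Replicates' deviations correlated between all pairs of cDC2 groups (r = 0.454 to 0.695), so the replicate number from the sample titles was also fitted as a block (cDC2 arrays only, 3 residual degrees of freedom). The script was tested on simulated data.

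Named genes are all members, Batf and Batf3, up to 4 genes per list with the largest difference past the threshold (otherwise up to 2 of smallest p), and the 2 genes most like each member (Gm and Rik symbols, small RNAs, olfactory receptors and receptor segments passed over). Fos, Jun, Plk2, Nab2 and Fosl1 were also followed across comparisons, and single marker genes named, after their values were seen. Members and lists were chosen with earlier results of these data known. Alternatives were other scalings, filters, log offsets, variance models and sets of arrays, and leaving out each array. Groups of 2 arrays and 1 cDC1 array limit the precision, and the difference between replicate numbers was tested after seeing the data.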

Additional observations from a re-analysis of the deposited data

How the results depend on the processing

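In the fit without the replicate block, 0, 0, 0, 2, 2, 0 and 1 members passed in the comparisons of genotype (resting, activated, mean of both), WT activation, DKO activation, interaction and subset. These counts were the same with no filter on dim genes, a second quantile normalization, centring on the median, log2(value + 16), the mean of a gene's clusters and eBayes with trend and robust settings. With the replicate number as a block, 1 member passed in the genotype mean, 5 in WT activation and 7 in DKO activation, and over all genes the counts went from 2, 2, 2, 1131 and 1472 to 79, 61, 599, 3791 and 4080. The block changed no other member call, the interaction stayed at 0, and no paired value exists for the lone cDC1 array, which carries no replicate number. With only the arrays of the groups compared, 0 members passed in WT activation and 0 in cDC1 against cDC2, and over all genes 5 and 0 passed there, against 0, 0 and 757 for resting genotype, activated genotype and DKO activation. Fewer residual degrees of freedom are part of that setting.

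Leaving out 1 array at a time, the member counts ranged from 0 to 1 in WT activation and from 0 to 2 in DKO activation. With the block they ranged from 2 to 4 and from 3 to 7, were 0 for the genotype mean, and ranged from 3 to 7 for the replicate numbers. Values that crossed 0 when 1 array was left out had these ranges. Resting genotype gave -0.33 to 0.02 for Dusp1, -0.46 to 0.87 for Egr2, -0.49 to 0.18 for Egr3, -0.04 to 0.52 for Ier3, -0.28 to 0.01 for Klf6, -0.65 to 0.63 for Nr4a2 and -0.33 to 0.17 for Nr4a3. Activated genotype gave -0.16 to 0.40 for Dusp1, -0.07 to 0.27 for Dusp2, -0.53 to 0.42 for Egr2, -0.30 to 0.00 for Egr3, -0.13 to 0.56 for Ier3, -0.30 to 0.00 for Klf6 and -0.14 to 0.41 for Nr4a2. The genotype mean gave -0.15 to 0.12 for Dusp1, -0.26 to 0.41 for Egr2, -0.32 to 0.02 for Egr3 and -0.26 to 0.38 for Nr4a2. WT activation gave -0.40 to 0.16 for Dusp1, -0.11 to 0.53 for Egr1, -0.08 to 0.22 for Egr3, -0.29 to 0.71 for Nr4a1 and -0.28 to 1.00 for Nr4a2. DKO activation gave -0.02 to 0.31 for Dusp1, -0.26 to 0.41 for Egr3 and -0.13 to 1.13 for Nr4a1. The subset comparison gave -0.24 to 0.06 for Egr3 and -0.35 to 0.93 for Nr4a2. The interaction gave -0.01 to 0.55 for Dusp1, -0.15 to 0.62 for Egr1, -0.93 to 0.41 for Egr2, -0.33 to 0.34 for Egr3, -0.37 to 0.32 for Ier3, -0.16 to 0.14 for Klf6, -0.33 to 0.92 for Nr4a1, -0.49 to 0.79 for Nr4a2 and -0.37 to 0.14 for Nr4a3. Under other settings, sign changes were seen for the interaction values of Egr3 (-0.02 after a second quantile normalization, 0.00 with log2(value + 16)) and Klf6 (0.01 with median centring). None of these values had passed the threshold, and the cause was not tested.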
